A study of Saccharomyces cerevisiae with 12 samples.

Results

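Ribosome assembly factors are the proteins that cut, modify and fold ribosomal RNA while ribosomal proteins join it. The genes followed here were 60 that encode such factors in Saccharomyces cerevisiae, listed by name, among 6692 mRNA features and 20619 features in all of the deposited annotation. RNA was sequenced from 4 groups of 3 libraries each, namely the cytoplasmic fraction and the total lysate of mex67-5 xpo1-1 cells and the cytoplasmic fraction and the total lysate of wild-type (WT) cells. Every culture had been kept at 37 °C for 1 h, a temperature at which both mutant alleles lose function. In the mutant strain the chromosomal MEX67 and XPO1 genes are disrupted with HIS3 and TRP1, and plasmids supply mex67-5 and xpo1-1. Both strains are labelled BY4741, yet their selection markers differ, so a difference between them cannot be told apart from one of strain background. Cells were first turned into spheroplasts with zymolyase, a part of each suspension was kept as total lysate, and the supernatant of the lysed remainder was taken as cytoplasm. The comparisons ask how much of each RNA is present in the cell and how much of it is found outside the nucleus when these export receptors fail.

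Ribosome assembly starts in the nucleolus, where the UTP complexes and the U3 small nucleolar ribonucleoprotein gather on the growing transcript and form the particle that gives rise to the small subunit. The rest of the transcript matures in large-subunit precursors with factors of their own. In budding yeast the genes for these proteins are known for being transcribed together in growing cells and for falling together under stress. Many of their promoters carry a pair of short elements called PAC and RRPE, which are bound by the repressors Dot6 and Tod6 and by Stb3. Mex67 carries mRNAs and ribosomal subunits through the nuclear pore, and Xpo1, also called Crm1, is a karyopherin that exports proteins and ribosomal subunits.

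The promoters of the members shared these elements. The PAC core GATGAG was found on either strand in 55 of the 60 promoters (91.7%), against 1223 of 6020 promoters of protein-coding genes (20.3%), in windows from 250 bases before to 50 bases after the coding start. The RRPE core GAAAATT was found in 39 members (65.0%), against 995 of all promoters (16.5%), and both cores in 36 members, against 270 of all promoters (4.49%). Each core was searched for alone, so a PAC and a RRPE match can share a letter, and a RRPE core can overlap its own reverse complement. UTP15, UTP22, UTP30, NSA1 and NOP53 held no PAC core in the window. The sequences below come from the RefSeq genome (R64, the sacCer3 assembly) and show the PAC core, in capitals, of the members on which the largest mRNA differences fall, and of NOP19, a member that moved the other way. Where the core lies on the opposite strand the capitals read CTCATC, and each line runs 5′ to 3′ on the strand of the gene.
RRP5 at chrXIII:731262-731291, minus strand: gaaaaattttaaGATGAGatgagctaaacc
UTP20 at chrII:227452-227481, plus strand: aaaatttttaccGATGAGcattgaaaagtt
RRP12 at chrXVI:529542-529571, plus strand: taattatatcatCTCATCtcatcgcgcaat
NOP14 at chrIV:190661-190690, minus strand: tgataatttagaGATGAGcatttagcgaga
NOP1 at chrIV:427148-427177, plus strand: caaattggaaagCTCATCtctcttgaatgt
NOP8 at chrXV:52987-53016, plus strand: taagaattgagcGATGAGctaaaatgtcaa
BRX1 at chrXV:186852-186881, minus strand: aaattttagatgCTCATCgcgatggttctc
RRP15 at chrXVI:818089-818118, plus strand: ttagctgtaataCTCATCatcatattttga
NSA2 at chrV:414293-414322, minus strand: tttccggacagcGATGAGatgcacttttaa
NOP19 at chrVII:995502-995531, plus strand: gcaatttctagcGATGAGattggaaaaact
In RRP5 the core began 156 bases before the coding start and was followed by another, overlapping copy at 151 bases. RRP12 likewise had overlapping copies, at 169 and 164 bases, of which the one farther from the gene is shown. In UTP20 the core began 172 bases before the coding start and a RRPE core 185 bases before it, so that the elements lie close together. The first base of that RRPE core falls just outside the printed stretch. NOP8 had the same order of elements, farther apart, with RRPE at 120 and PAC at 99 bases. A match describes these letters and was not tested for binding of a factor.

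**Figure D1:**
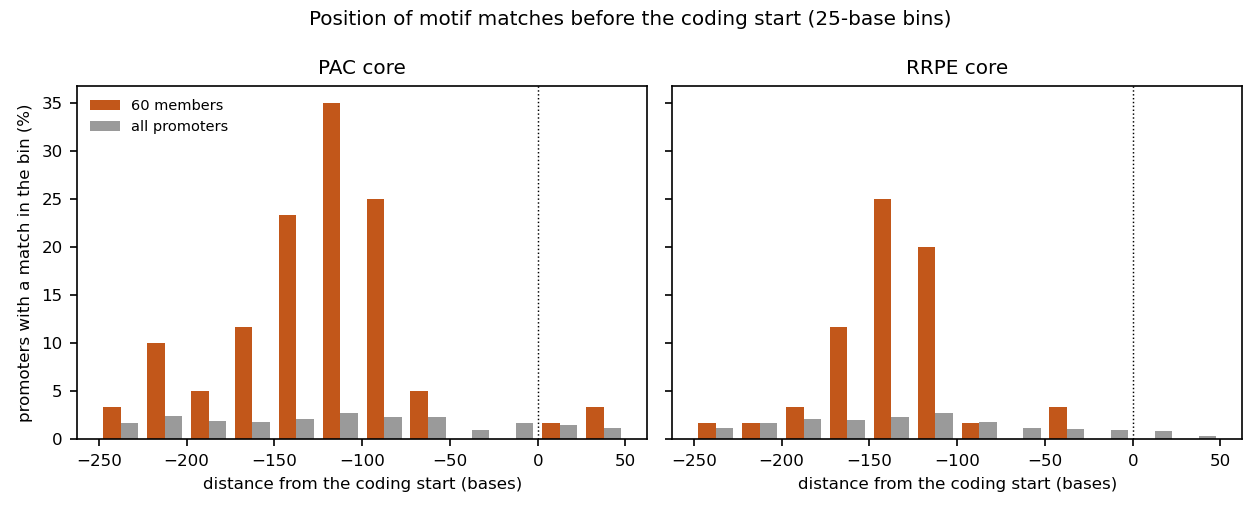
Share of promoters (percent, vertical axis) with a PAC core (left) or a RRPE core (right) starting in each 25-base bin, by distance from the coding start in bases (horizontal axis), for the 60 members and for all 6020 promoters. The PAC core was most frequent between 125 and 101 bases before the start, in 21 members (35.0%) against 2.74% of all promoters.

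The matches were also placed alike, as the plot of motif positions shows. The RRPE core was most frequent between 150 and 126 bases before the start, in 15 members against 2.26% of all promoters. It thus peaked farther from the gene than the PAC core. NOP19, whose mRNA was higher in mutant cytoplasm, also had a PAC core, 125 bases before its start.

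Reads in these libraries lay on the strand opposite to the RNA. Each mRNA was therefore read from the opposite-strand feature that covers at least 0.5 of the gene, and antisense signal from the gene's own feature. Such a feature existed for 56 members. For 30 of them the feature lay within the gene over at least 80% of its length and met no other gene on the member's strand, and these are called single-gene members below. For the other 26 the feature reaches further, so its counts also hold reads of neighbours. UTP11, NSR1, NOP56 and RLP24 had no value for the mRNA, because their widest opposite feature covered 45.53, 45.94, 45.95 and 48.12% of the gene. The members just inside that limit were EBP2 (50.51%), NOP15 (51.38%) and NOP16 (51.77%). At the limit of 80%, the feature of UTP5 lay 81.51% inside the gene and was kept as single-gene, while those of NOP4 (77.07%) and UTP10 (76.09%) were not. In WT total lysates the opposite strand held more counts per base than the gene's own feature in 54 of 56 members and in 29 of 30 single-gene members. In the 7 single-gene members with no annotated gene across from them, the own feature held a median of 0.629% of the mRNA signal (range 0.31 to 3.56%).

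Library totals ran from 24532091 to 37361004 counts, and CPM stands for counts-per-million values, scaled with TMM factors, which align the bulk of the features between libraries, unless said otherwise. Small nucleolar RNAs stay in the nucleus. Their own features held, without scaling, 108 to 164 CPM in mutant cytoplasm and 125 to 277 CPM in mutant total. In WT cytoplasm these held 55.0 to 68.0 CPM and in WT total 121 to 169.8 CPM. Counts on the own feature of HIS3 followed the strain labels, with 1267 to 1924 in mutant libraries and 1 to 30 in WT libraries. By the rule above own features hold antisense signal, so these counts are not levels of the RNAs themselves. WT cytoplasm library 1 stood apart for the members. The median log2 CPM of the 30 single-gene members was 5.88 there, against 4.95 and 5.32 in the other WT cytoplasm libraries, and the main results that use it are also given without it. All values are shares of a library after scaling, so less RNA of a gene per cell and more of other RNA cannot be told apart, and neither can a change in the number of cells lysed.

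Levels among the members spanned a wide range. Per length, NOP1, the methyltransferase of box C/D ribonucleoproteins known as fibrillarin in animals, had the highest value, with 206 ± 28.7 RPKM, the CPM divided by the length of the feature in kilobases (mean and SD, n = 3), in WT total. It was followed by NOG2, a GTPase of large-subunit precursors, with 119.9 ± 6.2, and by RRP5, an RNA-binding protein needed for both subunits, with 107 ± 11.5. NOG2 shares its feature with BRE5, POP2, SNR191 and ESF2, so of these 3 only NOP1 and RRP5 were read from a feature of 1 gene. The lowest were NOP16, a large-subunit factor, with 9.25 ± 0.96, NOP8, another large-subunit factor, with 10.3 ± 0.76, and UTP30, a factor of the small-subunit particle, with 14.9 ± 0.98. The feature read for NOP16 is that of PMI40, 29.53% inside NOP16, and the feature of UTP30 lies 48.59% inside it and meets KTR2, so these values are averages over longer stretches. Of the lowest only NOP8 was read from a feature of 1 gene. NOP16 and NOP8 do not differ beyond their SDs, and neither do NOG2 and RRP5.

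**Figure D2:**
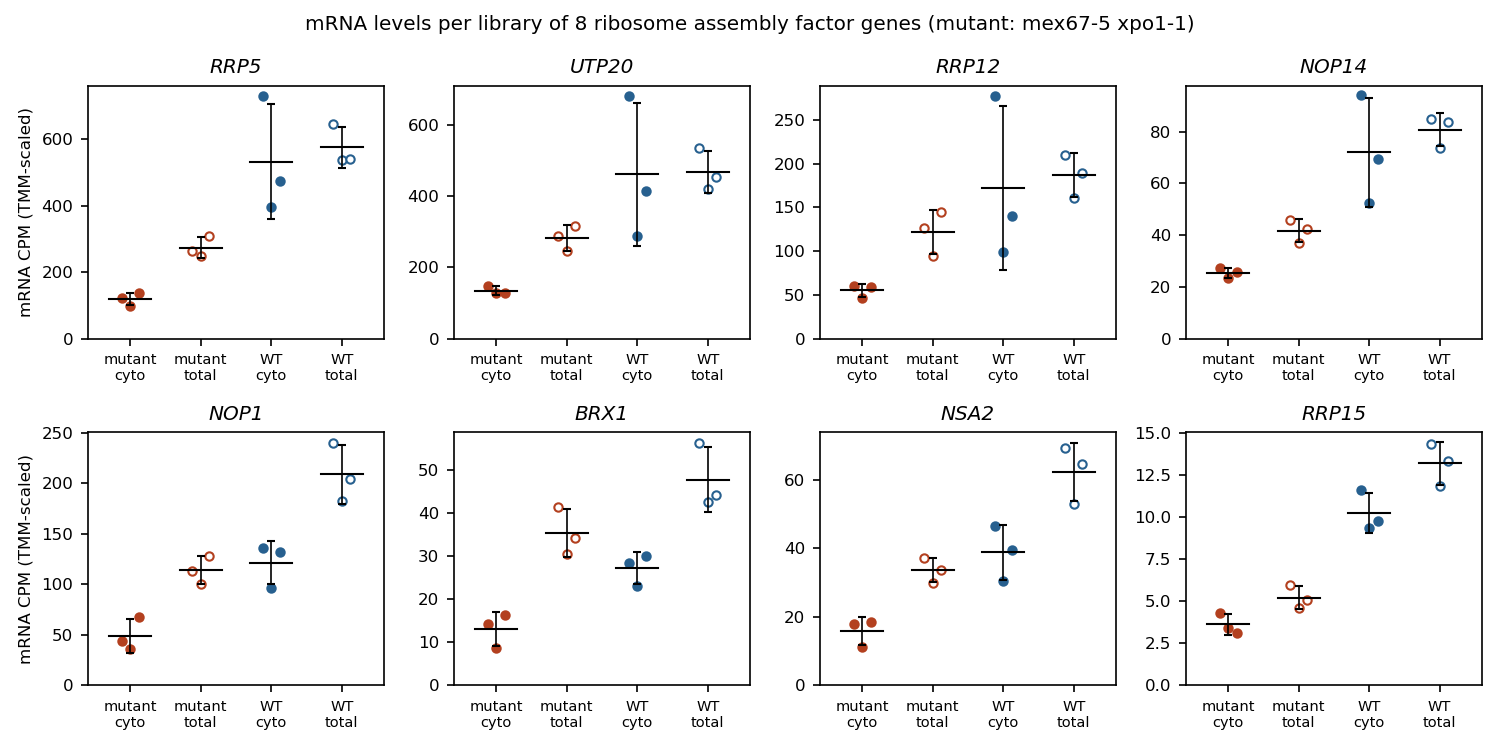
mRNA level of 8 members in each library (CPM after TMM scaling over all 12 libraries, linear axis from 0), in mex67-5 xpo1-1 cytoplasm and total and in WT cytoplasm and total. Points are libraries, and bars show the mean and SD of 3 libraries. Every mutant cytoplasm value of RRP5, at most 136 CPM, lies below every WT cytoplasm value, at least 395 CPM.

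Between the cytoplasmic fractions, members were lower in mex67-5 xpo1-1 than in WT. Of 56 members, 41 fell and 3 rose at an adjusted p under 0.05 in edgeR's quasi-likelihood test, while 39.9% of mRNAs read by the same rule fell and 21.0% rose. Of the single-gene members 24 of 30 fell and 1 rose, against 42.9 and 19.5% of mRNAs with a single-gene feature, and their median log2 fold change was -1.10, against -0.28 for those mRNAs. The groups did not overlap in 26 of the 30, and in 70.4% of mRNAs with a single-gene feature. With counts scaled to library totals in place of TMM factors, 13 of the 30 fell and 2 rose, with a median of -0.55. Under that scaling the median over all features tested was 0.57, against 0.04 with TMM factors. The shares of mRNAs that fell or rose under it are not given here. Without WT cytoplasm library 1, 24 fell and 2 rose, with a median of -0.84.

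RRP5 had the largest decrease. Its mRNA stood at 122, 98.8 and 136 CPM in mutant cytoplasm, against 729, 395 and 475 CPM in WT cytoplasm. The highest mutant library was below the lowest WT library, and the fold change was -2.15 ± 0.24 on the log2 scale (SE, adjusted p = 8.5e-05), or 4.42-fold lower. It was -1.87 without WT cytoplasm library 1 and -1.61 with library totals. UTP20, a very long protein of the small-subunit particle, had 148, 127 and 129 CPM in mutant cytoplasm and 681, 287 and 414 CPM in WT cytoplasm. These groups did not overlap either, although WT library 1 was far above the other WT libraries (-1.76 ± 0.28, adjusted p = 5.7e-04; -1.38 without that library). RRP12, needed for maturation and export of subunits, had 60.2, 46.8 and 58.4 CPM in mutant cytoplasm and 277, 99.0 and 140.0 CPM in WT cytoplasm, with no overlap and the same WT library highest. Its fold change was -1.62 ± 0.33 (adjusted p = 0.0021), and -1.12 without that library.

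By role, the UTP-A subunits, which bind the start of the transcript and are linked to its synthesis, fell in 5 of 6 members, with UTP5 at -1.16 ± 0.27 and UTP8 at -1.12 ± 0.24. UTP9 was the sixth, at 0.12 ± 0.20 on a feature shared with NVJ1 and RIX1. Of the UTP-B subunits, a complex that bridges the transcript and U3, 3 of 4 fell. The medians without WT cytoplasm library 1 were -0.71 for UTP-A and -0.79 for UTP-B, with the same counts. UTP6, the only single-gene member of UTP-B, had 9.98, 6.84 and 6.15 CPM in mutant cytoplasm against 29.3, 13.4 and 17.7 CPM in WT cytoplasm, without overlap (-1.38 ± 0.29, adjusted p = 0.0028, and -1.02 without that library). Among UTP22, of UTP-C, and the proteins of box C/D and U3 particles, 4 of 6 fell, with NOP1 at -1.29 ± 0.24 and IMP3, a partner of Mpp10, at -0.82 ± 0.23. RRP9, the protein specific to U3, was at -0.41 ± 0.22 and did not pass the test (adjusted p = 0.14). Of the other small-subunit factors 8 of 13 fell and 2 rose, with a median of -1.15 (-0.79 without that library, with the same counts).

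NOP14, which works with NOC4 and EMG1 on the small subunit, had 27.1, 23.5 and 25.5 CPM in mutant cytoplasm and 94.1, 52.3 and 69.4 CPM in WT cytoplasm. The groups were fully apart (-1.49 ± 0.21, adjusted p = 2.7e-04, and -1.26 without WT cytoplasm library 1). NOP19, needed to build the small-subunit particle, went the other way, with 17.4, 16.1 and 15.5 CPM in mutant cytoplasm and 12.9, 10.3 and 9.04 CPM in WT cytoplasm. Its groups did not overlap (0.62 ± 0.16, adjusted p = 0.0083), and it was the 1 single-gene member called higher between these groups. Without WT cytoplasm library 3 it missed the threshold (0.50, adjusted p = 0.052). IMP4, another Mpp10 partner, was at 0.65 ± 0.14 and UTP30 at 0.53 ± 0.20, but the feature of IMP4 is shared with MKS1 and that of UTP30 with KTR2.

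Most large-subunit factors fell too. Of the early factors 16 of 21 fell and none rose, with a median of -0.89, and of the later factors with the Rpl3 chaperone RRB1 5 of 6 fell, with a median of -1.03. When WT cytoplasm library 1 was left out, 14 early factors fell and 1 rose (median -0.75) and 5 later ones fell (median -0.86). NOP8 had 3.98, 2.58 and 4.14 CPM in mutant cytoplasm and 15.5, 7.79 and 10.1 CPM in WT cytoplasm, apart in all libraries (-1.62 ± 0.28, adjusted p = 8.8e-04, and -1.33 without that library). RRP15, a factor of early large-subunit particles, had 4.27, 3.41 and 3.12 CPM in mutant cytoplasm and 11.6, 9.32 and 9.76 CPM in WT cytoplasm. These were also apart (-1.49 ± 0.18, adjusted p = 1.4e-04). The members of the Nop7 complex, which holds Erb1 and Ytm1, were at -0.99 ± 0.22 for NOP7, -1.41 ± 0.28 for ERB1 and -0.73 ± 0.20 for YTM1, and all 3 passed the test. NOP12, an RNA-binding protein of large-subunit particles, was at 0.37 ± 0.18 and CIC1, which also binds the proteasome, at -0.48 ± 0.19, and neither passed. Among later factors NOG1, a GTPase, was at -1.30 ± 0.30 and NSA2 at -1.28 ± 0.22.

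**Figure D3:**
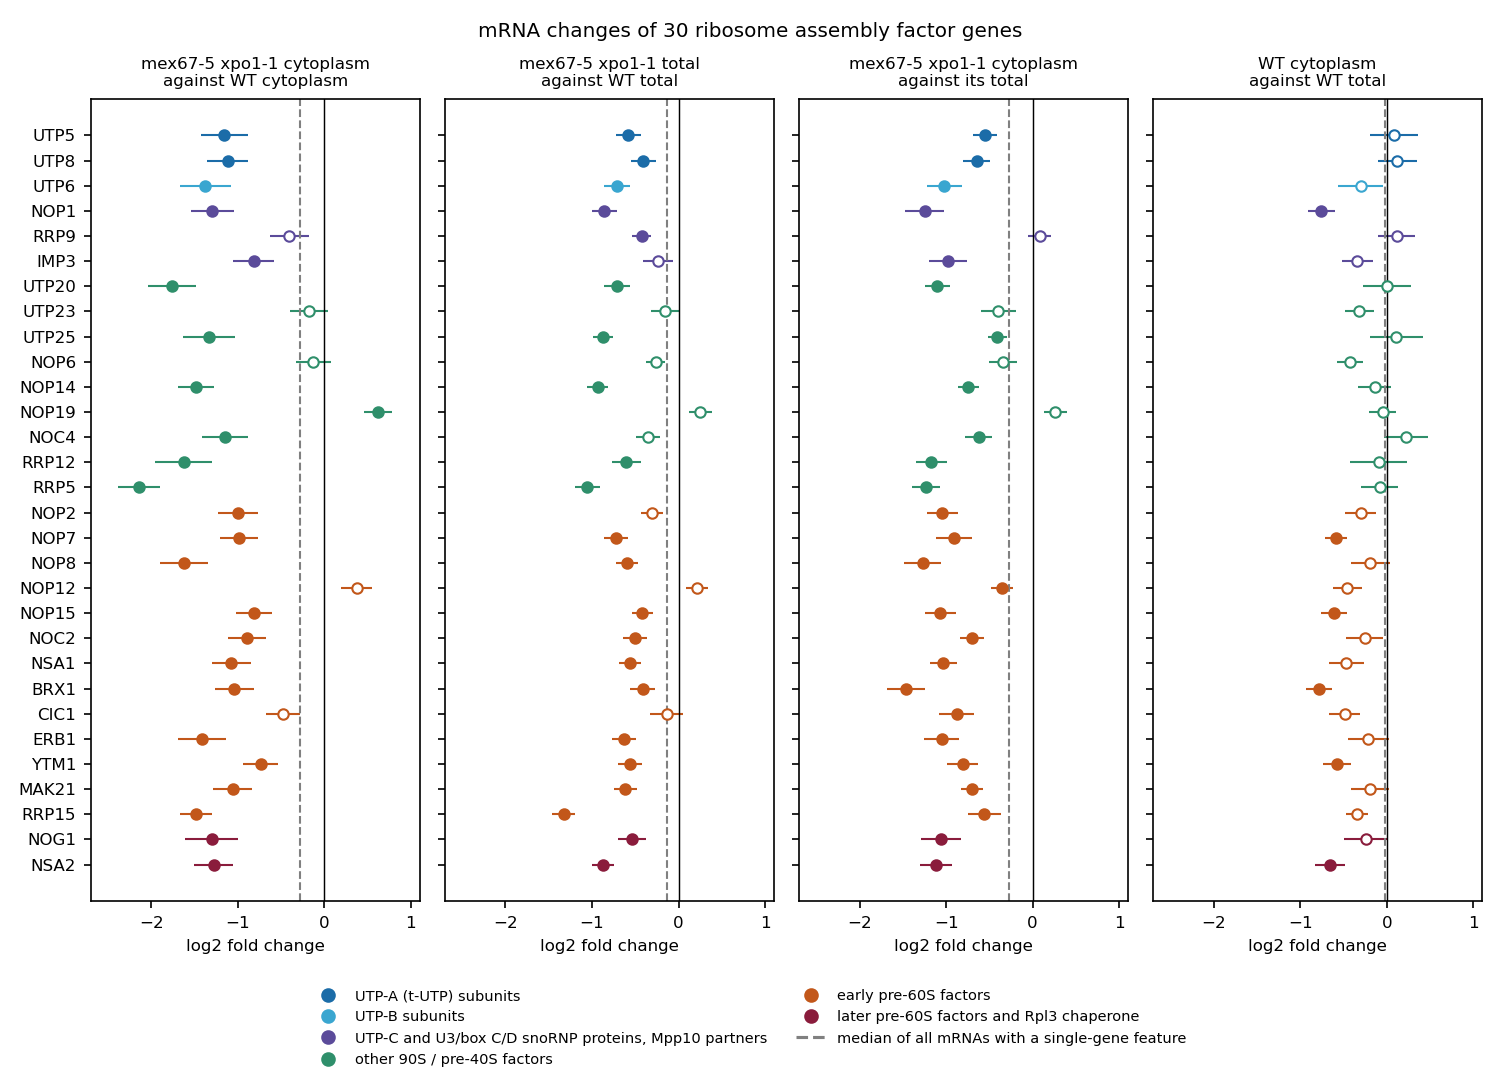
log2 fold change (horizontal axis) of the mRNA of the 30 single-gene members, by role, in mex67-5 xpo1-1 cytoplasm against WT cytoplasm, mex67-5 xpo1-1 total against WT total, mex67-5 xpo1-1 cytoplasm against its total, and WT cytoplasm against WT total. Bars are SEs, filled points passed an adjusted p under 0.05, and the dashed line is the median of all mRNAs with a single-gene feature. In these panels 24, 22, 26 and 6 members were lower.

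In total lysates the members were lower in mex67-5 xpo1-1 too, by smaller amounts. Of 56 members 36 fell and 1 rose, against 33.2 and 19.3% of mRNAs read by the same rule. Of the single-gene members 22 of 30 fell and none rose, against 33.3 and 20.1% of mRNAs with a single-gene feature, with a median of -0.56 against -0.13. The libraries of the strains did not overlap in 24 of the 30, and in 64.3% of mRNAs with a single-gene feature. With library totals 9 of the 30 fell and 2 rose (median -0.33), and with TMM factors computed on mRNAs alone 15 fell and 2 rose (median -0.43). Under these scalings the median over all features tested was 0.23 and 0.13, against 0.01 with TMM factors from all features. The shares of mRNAs that fell or rose under them are not given here.

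RRP15 led this comparison. It had 5.95, 4.58 and 5.05 CPM in mutant total and 14.4, 11.9 and 13.4 CPM in WT total. The highest mutant library was far below the lowest WT library, and the fold change was -1.33 ± 0.14 (adjusted p = 8.2e-05), or 2.51-fold lower. RRP5 was next among the single-gene members, with 264, 248 and 309 CPM in mutant total and 647, 538 and 541 CPM in WT total, again without overlap (-1.05 ± 0.14, adjusted p = 3.5e-04). NOP14 had 45.8, 36.9 and 42.5 CPM in mutant total and 85.0, 73.6 and 83.9 CPM in WT total, also apart (-0.94 ± 0.12, adjusted p = 2.4e-04). UTP14, which activates the helicase Dhr1 in the small-subunit particle, was at -1.06 ± 0.13, on a feature shared with GIM5. NSA2 (-0.87 ± 0.13), UTP25 (-0.87 ± 0.12), a small-subunit factor, and NOP1 (-0.86 ± 0.14) came next among the single-gene members.

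By role, 4 of 6 UTP-A subunits, 2 of 4 UTP-B subunits, 4 of 6 members of the UTP-C, U3 and box C/D group and 8 of 13 other small-subunit factors were lower in mutant total. Of the large-subunit factors 14 of 21 early and 4 of 6 later ones were lower. The 1 member that was higher was UTP30 (0.43 ± 0.11), on the feature it shares with KTR2. NOP12 and NOP19 were at 0.21 ± 0.13 and 0.25 ± 0.13 and did not pass, like NOP2, an rRNA methyltransferase, at -0.31 ± 0.13.

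Within the mutant, the members were lower in cytoplasm than in total lysate. Of 56 members 39 fell and 2 rose, against 39.4 and 20.1% of mRNAs read by the same rule. Of the single-gene members 26 of 30 fell and none rose, against 42.4 and 17.9% of mRNAs with a single-gene feature, and the median was -0.89 against -0.27. Cytoplasm and total did not overlap in 26 of the 30, and in 68.3% of mRNAs with a single-gene feature. With library totals 12 of the 30 fell and 2 rose, with a median of -0.40. Under that scaling the median over all features tested was 0.50, against -0.01 with TMM factors.

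BRX1, a large-subunit factor that works with Ebp2, had 14.2, 8.74 and 16.4 CPM in mutant cytoplasm and 41.4, 30.5 and 34.3 CPM in mutant total. No cytoplasm library reached any total library (-1.46 ± 0.22, adjusted p = 7.4e-04), and the level was 2.76-fold lower. NOP8 had 3.98, 2.58 and 4.14 CPM in mutant cytoplasm and 9.50, 7.26 and 8.51 CPM in mutant total (-1.27 ± 0.21, adjusted p = 0.0011). NOP1 had 44.0, 35.4 and 67.8 CPM in mutant cytoplasm and 114, 100.3 and 128 CPM in mutant total, and again every cytoplasm library was the lower (-1.24 ± 0.23, adjusted p = 0.0017). RRP5 was at -1.23 ± 0.16, RRP12 at -1.17 ± 0.18 and UTP20 at -1.10 ± 0.14. NOG2 was at -1.48 ± 0.15 on its shared feature.

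All 15 single-gene members of the large subunit fell in mutant cytoplasm relative to mutant total, with a median of -1.03 and a range from -1.46 in BRX1 to -0.36 in NOP12. Of the 15 single-gene members of the small subunit 11 fell, with a median of -0.64. The other 4 were NOP19 (0.26 ± 0.13), RRP9 (0.08 ± 0.13), NOP6 (-0.34 ± 0.16), an RNA-binding small-subunit factor, and UTP23 (-0.40 ± 0.21), which is needed for release of the small nucleolar RNA snR30. The difference between these role groups was not tested. The 2 members that rose were IMP4 (0.73 ± 0.13) and UTP18 (0.34 ± 0.12), a UTP-B subunit, both on features shared with other genes, and UTP18 missed the threshold without mutant cytoplasm library 1 or 2 or mutant total library 1 or 3 (adjusted p between 0.055 and 0.091).

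In WT the same comparison gave fewer calls. Of 56 members 11 were lower in cytoplasm than in total and 1 was higher, against 21.6 and 20.7% of mRNAs read by the same rule. Of the single-gene members 6 of 30 were lower and none higher, against 20.9 and 20.9% of mRNAs with a single-gene feature. In this fit, which does not use the replicate number, the share that fell was thus near that of other mRNAs. The median was -0.28 against -0.02, and the fractions did not overlap in 9 of the 30, against 53.4% of mRNAs with a single-gene feature. Same-numbered WT libraries deviated together, and with the replicate number as a block 24 of the 56 members and 14 of the 30 single-gene members were lower, while calls over all features went up to 6255 of 11976, against 4772 without the block. Leaving out WT cytoplasm library 1 gave 31 members lower, 21 of them single-gene, with a median of -0.51 over the 30. Calls over all features, in either direction, were then 5231 of 12073. Leaving out WT total library 1 gave 6 and leaving out WT total library 3 gave 7 of 56 members lower. The shares of mRNAs that fell in these settings and with the block are not given here. Whether these counts are particular to the members can therefore not be read from them.

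The 6 were large-subunit factors and NOP1. BRX1 had 28.5, 23.0 and 30.1 CPM in WT cytoplasm and 56.5, 42.6 and 44.4 CPM in WT total, with no overlap (-0.78 ± 0.15, adjusted p = 0.0062). NOP1 had 136, 96.5 and 132 CPM in WT cytoplasm and 240.2, 183 and 204 CPM in WT total (-0.75 ± 0.16, adjusted p = 0.0087), and NSA2 had 46.6, 30.4 and 39.6 CPM in WT cytoplasm and 69.5, 52.9 and 64.8 CPM in WT total (-0.66 ± 0.17, adjusted p = 0.019). In both genes every cytoplasm library was below every total library. NOP15, a large-subunit RNA-binding protein (-0.61 ± 0.15), NOP7 (-0.59 ± 0.13) and YTM1 (-0.57 ± 0.16) were the others. No other small-subunit member with a single-gene feature was called, and values ran from -0.42 in NOP6 to 0.22 in NOC4, with UTP20 at 0.00 ± 0.28, RRP5 at -0.08 ± 0.21, RRP12 at -0.09 ± 0.33 and UTP8 at 0.12 ± 0.23. Over the single-gene members the median was -0.08 for 15 small-subunit factors and -0.46 for 15 large-subunit factors, a difference that was not tested. These medians without WT cytoplasm library 1 were -0.39 and -0.63, with 6 and 15 members lower, UTP20 was at -0.39, RRP5 at -0.38 and RRP12 at -0.62 (adjusted p = 0.025). NSA2 missed the threshold without WT cytoplasm library 3 or WT total library 1 or 3 (adjusted p between 0.052 and 0.063). NOG2 had the largest decrease, with 495, 295 and 337 CPM in WT cytoplasm and 736, 748 and 809 CPM in WT total on its shared feature. MAK16, a large-subunit factor, was the 1 member called higher (0.66 ± 0.16), but only 8.94% of the feature read for MAK16 lies in that gene, and the call was lost without WT cytoplasm library 3 or WT total library 2 or 3.

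**Figure D4:**
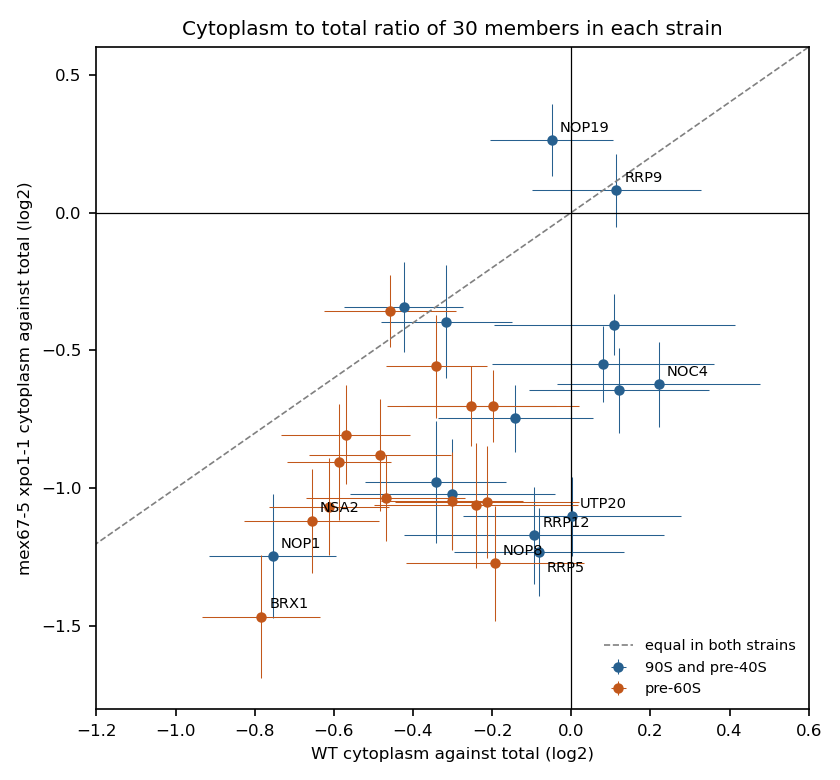
Cytoplasm to total ratio (log2) of the 30 single-gene members in mex67-5 xpo1-1 (vertical axis) and in WT (horizontal axis), with SEs and the line of equal ratios, for 15 small-subunit (90S and pre-40S) and 15 large-subunit (pre-60S) factors. BRX1 and NOP1 are low in both strains, while RRP5, UTP20 and RRP12 are near 0 in WT and between -1.10 and -1.23 in the mutant. Without WT cytoplasm library 1 their WT ratios were -0.38, -0.39 and -0.62.

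Whether the ratio itself changed was tested as the interaction of strain and fraction over all 12 libraries. The ratio was lower in the mutant for 2 of 56 members and higher for 1, against 7.73 and 4.31% of mRNAs read by the same rule. Among single-gene members 1 of 30 was lower and none higher, against 9.31 and 3.76% of mRNAs with a single-gene feature, with a median of -0.48 against -0.19. The single-gene member was RRP5, whose cytoplasm to total ratio was -1.23 ± 0.16 in the mutant and -0.08 ± 0.21 in WT, a change of -1.09 ± 0.29 (adjusted p = 0.031). With library totals the change was -0.79 and missed the threshold (adjusted p = 0.083), and it did so without 7 of the 12 libraries in turn, which were mutant cytoplasm 1 and 2, mutant total 1 and 3, WT cytoplasm 3 and WT total 2 and 3 (adjusted p between 0.053 and 0.093). Without WT cytoplasm library 1 the change was -0.80 (adjusted p = 0.049). UTP20 (-1.05 ± 0.34, adjusted p = 0.068), NOP8 (-1.02 ± 0.33, adjusted p = 0.065) and RRP12 (-1.02 ± 0.41, adjusted p = 0.13) had changes of like size that did not pass. With the replicate number as a block, which pairs the WT libraries but was not borne out in the mutant, 9 of 56 members and 6 of 30 single-gene members were lower, among them UTP20 (-0.96, adjusted p = 0.030) and NOP8 (-0.99, adjusted p = 0.029), while RRP12 was at -0.88 (adjusted p = 0.054). Without WT cytoplasm library 2 the ratio of 16 members was called lower, without WT cytoplasm library 1 that of 1 and without WT cytoplasm library 3 that of none. Calls over all features, in either direction, were then 1912 of 13101, 1234 of 13219 and 699 of 13192. With the block these calls were 1537 of 13145, against 1347 of 13145 in the main fit. The shares of mRNAs with a lower ratio in these settings are not given here. IMP4 (0.74 ± 0.18) and MAK16 (-0.97 ± 0.25) were the other members called, both on features shared with other genes. MAK16 missed the threshold without 8 of the libraries in turn (adjusted p between 0.053 and 0.091) and IMP4 without 4 (adjusted p between 0.051 and 0.061).

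The comparisons share libraries, so their values for a gene are not independent. The order of members differed between them. BRX1 was among the lowest in both comparisons of fractions, at -1.46 in the mutant and -0.78 in WT, and at -0.42 between totals. RRP15 was lowest between totals at -1.33 and at -0.56 between the mutant fractions. RRP5 was near the low end of all but the WT comparison.

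Values also varied with gene length. The 10 longest single-gene members, from 2493 to 7909 bases with untranslated regions, were lower in all of mutant cytoplasm against WT cytoplasm, mutant total against WT total and mutant cytoplasm against mutant total, with medians of -1.37, -0.62 and -0.90, while none was called in WT cytoplasm against WT total (median -0.12). The 10 shortest, from 1053 to 1589 bases, had medians of -0.82, -0.34 and -0.93 in the mutant comparisons and -0.45 in WT, where 4 of them were lower. Of all mRNAs with a single-gene feature, of any length, 42.9, 33.3 and 42.4% were lower in the mutant comparisons and 20.9% in WT. Shares among mRNAs of like length, or without WT cytoplasm library 1, are not given here. Across the 30 genes, Spearman's rho between length and fold change was -0.53 for mutant cytoplasm against WT cytoplasm, against -0.11 over 2375 mRNAs with a single-gene feature. For WT cytoplasm against WT total it was 0.57, against 0.42 over 2338 such mRNAs. These values without WT cytoplasm library 1 were -0.37 against -0.07 over 2385 mRNAs, and 0.31 against 0.34 over 2339 mRNAs. The 10 longest then had medians of -1.04 between the cytoplasmic fractions, where all 10 were lower, and -0.43 between the WT fractions, where 5 were lower. The 10 shortest had medians of -0.72 and -0.58, with 6 and 9 lower. These are descriptions across genes that share libraries and depth, and genes are not independent replicates.

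**Figure D5:**
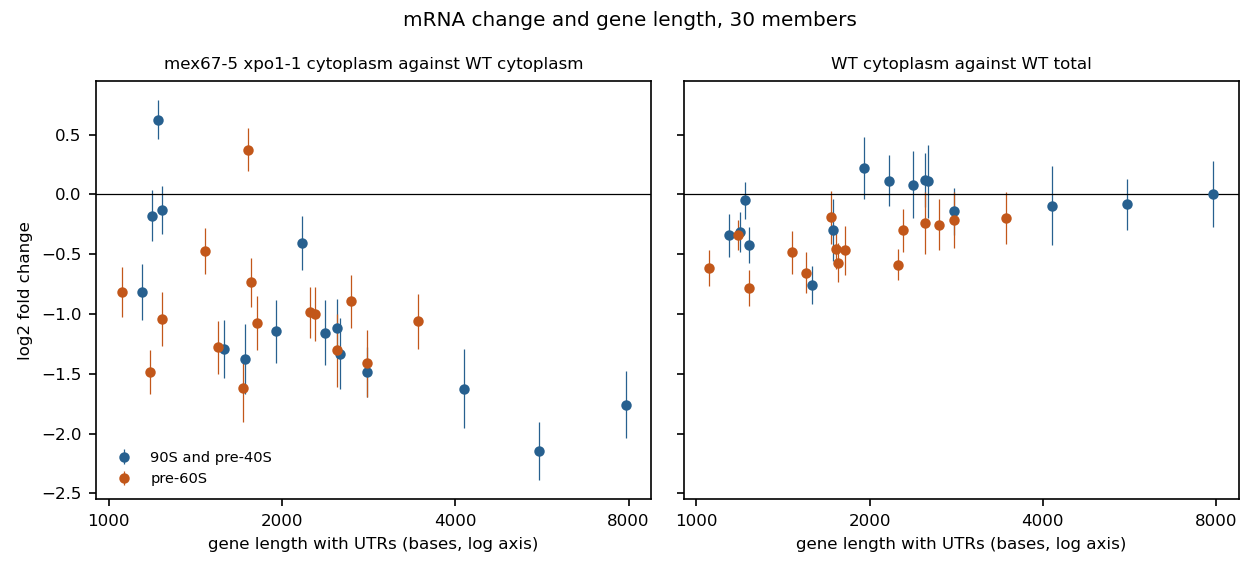
log2 fold change (vertical axis, with SE) against gene length in bases (horizontal log axis) for the 30 single-gene members, in mex67-5 xpo1-1 cytoplasm against WT cytoplasm (left) and WT cytoplasm against WT total (right). The longest genes, UTP20, RRP5 and RRP12, lie between -2.15 and -1.62 on the left and between -0.09 and 0.00 on the right.

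Members with and without a RRPE core were set side by side. Between the cytoplasmic fractions 15 of 18 single-gene members with a RRPE core were lower (median -1.11), as were 9 of 12 without one (median -1.09). Between total lysates these were 14 of 18 (median -0.56) and 8 of 12 (median -0.50). Only NSA1 lacked a PAC core among the single-gene members, and it was at -1.08 ± 0.23 between the cytoplasmic fractions. These counts are given without a test.

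Members whose feature reaches beyond the gene had medians nearer to 0. Of these 26, 17 were lower and 2 higher between the cytoplasmic fractions (median -0.60), 14 lower and 1 higher between totals (median -0.34), 13 lower and 2 higher between the mutant fractions (median -0.45) and 5 lower and 1 higher between the WT fractions (median -0.12). Of mRNAs read by the same rule, 39.9, 33.2, 39.4 and 21.6% were lower in these comparisons and 21.0, 19.3, 20.1 and 20.7% higher. The 19.2% lower between the WT fractions, without the replicate block, was near the share of other mRNAs. UTP21, a UTP-B subunit whose feature lies 95.45% inside the gene and also meets BLS1, had 47.3, 33.1 and 47.7 CPM in mutant cytoplasm and 145, 69.9 and 101 CPM in WT cytoplasm, without overlap (-1.28 ± 0.26, adjusted p = 0.0021, and -0.996 without WT cytoplasm library 1). MAK16 had 336, 329 and 436 CPM in mutant cytoplasm and 1462, 962 and 1359 CPM in WT cytoplasm (-1.76 ± 0.21, adjusted p = 1.1e-04), also apart, but its feature of 14233 bases holds LTE1, PMT2, FUN26, CCR4 and ATS1 as well. UTP22 (-1.19 ± 0.21), RRB1 (-1.24 ± 0.22) and NOC3, which pairs with NOC2 on large-subunit particles (-1.11 ± 0.22), also have features more than 90% inside the gene. UTP13 (-0.85 ± 0.24), UTP18 (0.02 ± 0.13), NOP13 (0.22 ± 0.15), EBP2 (-0.14 ± 0.13) and DBP9, a helicase (-0.32 ± 0.16), have features less than 40% inside it. The part of the neighbours in these values was not tested.

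Other assembly factors and genes of RNA polymerase I were mostly lower in the mutant as well. Of 92 further assembly factors listed by name 88 were found and 84 tested, and 61 of them fell and 6 rose between the cytoplasmic fractions, with a median of -0.78. Between totals 61 fell and 4 rose (median -0.52), between the mutant fractions 57 fell and 5 rose (median -0.62) and between the WT fractions 20 fell and 2 rose (median -0.23). Of 15 tested genes of RNA polymerase I and its factors 10 fell and 1 rose between the cytoplasmic fractions and 9 fell and 1 rose between totals, with medians of -0.68 and -0.47. Of 10 regulators, such as SFP1, DOT6, TOD6 and STB3, 6 fell and 1 rose between the cytoplasmic fractions, 2 fell and 2 rose between totals, and 5 rose and none fell between the WT fractions. Of mRNAs read by the same rule, 39.9% fell and 21.0% rose between the cytoplasmic fractions, and 33.2 and 19.3% between totals. Between the mutant fractions these shares were 39.4 and 20.1%, and between the WT fractions 21.6 and 20.7%. The 23.8% of further assembly factors that fell between the WT fractions, without the replicate block, was thus near the share of other mRNAs. Several features of these lists overlap those of the members, so the lists are not fully separate.

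Antisense signal on the members' own features was below the mRNA signal per length in most members. The own feature had to reach a mean count above 40 in a comparison, so members that passed only through the group where they are high had to differ, and the counts that follow describe them without support for a direction. The values below of RRP9 and CIC1 outside the mutant fractions, of UTP21 and NOP19 between the WT fractions, of NOP58 between the mutant fractions and of NOC3 come from features whose lower group averaged 40 counts or fewer, and are descriptions with no test. Between the cytoplasmic fractions 48 members were tested, 14 were higher and 10 lower in the mutant, against 38.3 and 20.3% of own features of mRNAs. Between totals 36 were tested, 12 were higher and 6 lower (31.1 and 19.3% of own features), between the mutant fractions 47, with 20 higher and 14 lower in cytoplasm (38.2 and 21.7%), and between the WT fractions 36, with 11 higher and 5 lower (23.8 and 15.6%). For the interaction 45 were tested, 2 were higher and 3 lower (5.24 and 3.81%). At 36 of the 60 members an annotated gene lies on the opposite strand, and its mRNA would be counted on the member's own feature.

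The highest antisense signals were of that kind. At NOP8 the own feature held 1042% of the mRNA signal per length in WT total, with RIB4, a gene of riboflavin synthesis, overlapping NOP8 by 410 bases. It had 27.2, 33.0 and 29.7 CPM in mutant total and 189.7, 176 and 184 CPM in WT total (-2.60 ± 0.12, adjusted p = 1.5e-06), with no overlap. At NOP16 it was 262% (PMI40, 541 bases), at YTM1 62.2% (TPO4, 469 bases) and at BRX1 41.8% (ATP19, 405 bases). RRP9 had the largest increase between the cytoplasmic fractions, with 15.0, 22.3 and 11.9 CPM in mutant cytoplasm and 1.04, 1.62 and 1.03 CPM in WT cytoplasm, and an uncharacterized gene, YPR136C, overlaps it by 621 bases. The groups were far apart (3.73 ± 0.29), and the RRP9 mRNA was at -0.41 ± 0.22. At CIC1, where CUP1-1 overlaps by 22 bases and has a near-identical copy beside it, the own feature had 4.49, 26.5 and 9.04 CPM in WT cytoplasm and 0.656, 0.632 and 0.179 CPM in WT total (4.82 ± 0.78), with WT cytoplasm library 2 far above the others. Next between the WT fractions came UTP21 (2.44 ± 0.39) and NOP19 (2.40 ± 0.48), while NOP58 (-1.16 ± 0.18), DBP9 (-0.70 ± 0.17) and NOP8 (-0.66 ± 0.11) were lower. Between the cytoplasmic fractions NOP8 (-2.30 ± 0.15), NSA2 (-1.15 ± 0.17) and NOP19 (-1.14 ± 0.38) had the largest decreases. Between totals RRP9 (3.20 ± 0.28) and CIC1 (3.02 ± 0.52) were higher and NOP16 (-0.65 ± 0.11) and UTP25 (-0.60 ± 0.18) lower. Between the mutant fractions RRP9 (1.78 ± 0.27) and CIC1 (1.76 ± 0.36) were higher and IMP3 (-1.05 ± 0.18) lower.

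Of the 24 members with no gene across from them, 14 were tested between the mutant fractions, and 10 were higher and 1 lower in cytoplasm, against 59.2 and 4.94% of own features of mRNAs without such a gene. UTP5 had 5.80, 6.11 and 4.26 CPM of antisense signal in mutant cytoplasm and 1.51, 1.62 and 1.24 CPM in mutant total, without overlap (1.86 ± 0.21, adjusted p = 2.3e-04), while its mRNA was at -0.55 ± 0.14. UTP10, of the same complex, had 10.7, 11.5 and 7.52 CPM in mutant cytoplasm and 3.81, 3.61 and 4.28 CPM in mutant total (1.31 ± 0.19). The member that fell was NOP58, a core protein of box C/D particles, at -1.63 ± 0.31. Between the cytoplasmic fractions 6 of 14 such members were higher and 1 lower in the mutant, against 54.3 and 6.51% of the same class, among them NOC3 at 2.38 ± 0.31 and NOG1 at 1.69 ± 0.26.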

How the data were processed

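RNA-seq of 12 libraries was used, 3 of each group. The authors aligned reads to sacCer3 with STAR (version 2.5.2a), counted them with featureCounts (version 1.5.0-p1) and deposited raw counts per feature. Base calls came from bcl2fastq (version 2.17.1.14), per the submitters' processing notes. The settings for strand and overlap are not given in the sources used here, and the labels name a kit that does not mark strand, although counts in the files differ between the strands. The reference genome fitted the deposited annotation, since 6656 of 6656 start codons read ATG there. Promoter windows were read from that genome at RefSeq coding starts.

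Counts were tested in R (version 4.3.3) with edgeR (version 4.0.16), by the quasi-likelihood test with TMM factors, a filter that kept mean counts over 40, and Benjamini-Hochberg adjustment over all features tested, at 0.05. The 4 comparisons of groups used 6 libraries each and the interaction 12. Fold changes are log2 with SE. CPM and RPKM were computed from the deposited counts. Replicates are biologically independent cultures per the study's methods. Per the methods each cytoplasm shares a culture with a total lysate. In WT the deviations of same-numbered libraries correlated at 0.245, 0.394 and 0.115, which was read as pairing. In the mutant the correlations were 0.383, -0.355 and -0.190, so there it is not known that the numbers mark cultures. Features that overlap hold the same reads. Alternatives were DESeq2 (version 1.42.0), no filter, library totals, TMM factors from mRNAs, 1 fit over all libraries, the replicate block, single-gene features, features taken by name and leaving out each library. Summaries used Python (version 3.11.15).

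Members, role groups and the lists of other assembly factors, RNA polymerase I genes and regulators were chosen with earlier results of these data known. Genes named with full values are in each comparison the 4 members that rose most and the 4 that fell most, called and without overlap (called alone for the interaction), the 3 highest and 3 lowest by RPKM in WT total, the 4 with the highest antisense to mRNA ratio, and the 3 whose antisense signal rose or fell most. Others stand for their role group. The SE of a fold change is its absolute value divided by the square root of the F statistic of the quasi-likelihood test. SDs of levels are the spread of 3 libraries. The tests were run on simulated data in which some features changed by 1.5 on the log2 scale. Of these, 96.9% were recovered between the WT fractions, 96.4% between the mutant fractions, 94.8% between totals and 95.8% between the cytoplasmic fractions. For the interaction 83.9% were recovered. False calls made up 6.47, 7.46, 8.08, 9.5 and 5.65% of calls, in this order, above the share set by the adjusted p threshold. Recovery of smaller changes, such as most of those of the members, is not given here.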

Additional observations from a re-analysis of the deposited data

Results flagged for a closer look

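In 8 cases the cytoplasm to total ratio of a signal differed between the strains by the interaction test (edgeR's quasi-likelihood test, 12 libraries). For RRP5 mRNA the difference was -1.09 on the log2 scale (adjusted p = 0.031), with a ratio of -1.23 in the mutant and -0.08 in WT. It missed the threshold with library totals (adjusted p = 0.083) and without several of the libraries in turn, as given above. For IMP4 mRNA it was 0.74 (adjusted p = 0.023), on a feature shared with MKS1, with 40.8, 36.8 and 34.8 CPM in mutant cytoplasm, 24.3, 18.8 and 23.4 CPM in mutant total, 22.9, 26.1 and 23.5 CPM in WT cytoplasm and 26.3, 21.1 and 24.1 CPM in WT total. For MAK16 mRNA it was -0.97 (adjusted p = 0.026), on a feature of 14233 bases that holds 5 other genes. IMP4 and MAK16 also missed the threshold without some of the libraries in turn.

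The other differences were in antisense signal. At NOG1, which has no annotated gene across from it, the difference was 1.24 (adjusted p = 0.049), with 5.56, 5.58 and 3.66 CPM in mutant cytoplasm, 2.43, 1.99 and 1.67 CPM in mutant total, 1.64, 1.82 and 1.17 CPM in WT cytoplasm and 1.38, 1.94 and 1.21 CPM in WT total. At NSA1, opposite CUE3, it was 0.95 (adjusted p = 0.019), with 20.2, 22.6 and 18.5 CPM in mutant cytoplasm, 7.79, 8.75 and 8.80 CPM in mutant total, 6.78, 10.8 and 9.56 CPM in WT cytoplasm and 7.38, 7.82 and 6.57 CPM in WT total. At NSA2, opposite RSP5, it was -0.82 (adjusted p = 0.021), at UTP7, opposite SER3, -1.04 (adjusted p = 0.046) and at YTM1, opposite TPO4, -1.21 (adjusted p = 0.033). Reads of these opposite genes are counted on the same features, and their part in the differences was not tested. The number of antisense calls also changed with the setting, as given below.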

How the results depend on the processing

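Over 56 members, WT cytoplasm against WT total gave 1 higher and 11 lower (median -0.22), and the replicate block gave 24 lower, no filter 17, single-gene features 0 higher and 6 lower, and features taken by name 11 higher and 5 lower (median 0.24). Changed antisense signals numbered 16 there, 31 with no filter and 25 in 1 fit over all libraries. Mutant cytoplasm against mutant total gave 2 and 39 (median -0.72), library totals 9 and 20 (-0.23), TMM factors from mRNAs 5 higher, no filter and the block 1 higher each, single-gene features 0 higher and features by name 20 and 14 (0.17). Mutant total against WT total gave 1 and 36 (median -0.44), library totals 5 and 13 (-0.21), TMM factors from mRNAs 4 higher, no filter and 1 fit 0 higher each, single-gene features 0 and 22, and features by name 12 and 6 (0.15). Mutant cytoplasm against WT cytoplasm gave 3 and 41 (median -0.89), library totals 8 and 20 (-0.35), TMM factors from mRNAs 5 higher, single-gene features 1 and 24, and features by name 14 and 10 (-0.029). The interaction gave 1 and 2 (median -0.41), library totals 2 and 0 (-0.10), DESeq2 4 lower, the block 9 lower, single-gene features 0 and 1, and features by name 2 higher. Its 5 antisense calls became 8 with DESeq2 and 2 with TMM factors from mRNAs. The replicate block moved no other count of calls by over 1.5 times. The medians over the members kept their direction under every scaling. With library totals the medians over all features tested were 0.16, 0.50, 0.23, 0.57 and 0.20, in the order of comparisons above. With TMM factors these were 0.02, -0.01, 0.01, 0.04 and -0.10.

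Leaving out each library in turn gave, in the same order of comparisons, 0 to 1, 1 to 2, 1 to 1, 1 to 4 and 0 to 1 members higher. The members lower numbered 6 to 31, 37 to 42, 28 to 38, 37 to 44 and 0 to 16, and the antisense calls 11 to 20, 26 to 35, 14 to 18, 19 to 26 and 1 to 7. The medians ran from -0.45 to -0.04, -0.78 to -0.62, -0.51 to -0.37, -1.08 to -0.76 and -0.56 to -0.22. Calls over all features, in either direction, ran from 2853 to 5231 between the WT fractions and from 699 to 1912 for the interaction.

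Of 54 results for single genes, 30 kept their direction and their side of the threshold under every alternative. Those that turned round did so with features taken by name, namely NSA2 (0.36 between WT fractions), NOP1 (1.44 between mutant fractions), UTP14 (0.46 between totals), IMP4 (-0.47), NOP19 (-1.14) and RRP12 (0.40) between cytoplasmic fractions, and IMP4 (-0.93) for the interaction. That setting reads the strand of the antisense signal. Of the 54 results 25 are for mRNAs, and 17 of these stayed the same under every alternative apart from the choice of feature. The others are antisense values, some of them called descriptions with no test above. For those an unchanged call gives no support. Depth limits the antisense values, since 24 of 60 own features stayed at or under the mean count of 40 between totals.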

Other observations

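UTP11, NSR1, NOP56 and RLP24, which had no value for the mRNA, were measured on their own features only. NSR1, a nucleolin-like protein, had 17.3, 19.9 and 17.4 CPM there in mutant cytoplasm, 8.08, 7.04 and 11.1 CPM in mutant total, 2.68, 4.28 and 3.13 CPM in WT cytoplasm and 1.28, 0.988 and 0.821 CPM in WT total. Mutant libraries were above WT libraries of the same fraction, with fold changes on the log2 scale of 2.44 ± 0.19 between the cytoplasmic fractions and 3.10 ± 0.24 between totals. The WT total libraries averaged 29.0 counts there, so the feature passed the filter between totals through the mutant alone, and that value is a description with no test. YGR160W overlaps NSR1 on the other strand by 792 bases. At NOP56, a core protein of box C/D particles, the own feature was lower in mutant cytoplasm than in mutant total (-0.74 ± 0.14), and at RLP24, which helps to place Nog1, it was at -1.16 ± 0.19, with the cytoplasm libraries averaging 39.7 counts. The own feature of UTP11, a small-subunit factor, stayed under a mean count of 40 in every comparison.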
